A study of Mus musculus with 33 samples.

Results

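Levels of 9 genes that encode layer and identity factors of excitatory cortical neurons (Cux1, Cux2, Foxp1, Fezf2, Bcl11b, Tbr1, Foxp2, Tle4 and Neurod6) were followed across the 7 genotype and sleep groups of a frontal cortex RNA-seq experiment. The members are the rows of the expression table with these symbols, 9 of 21565 listed genes. The table holds 33 libraries, each from the frontal cortex of a separate adult male mouse on a C57BL/6J background, taken at zeitgeber time (ZT, hours after the usual lights-on) 6. Wild-type (WT) mice were left to sleep ad libitum (control sleep, CS, n = 6), kept awake on a slow treadmill for 6 hr (SD, n = 7) or kept awake for 4 hr and then given 2 hr of recovery sleep (RS, n = 7). Mef2c f/f mice carry loxP sites on both sides of exon 11 of Mef2c and were studied in CS (n = 4) and SD (n = 3). Mef2c-cKO mice carry the same floxed alleles with a Camk2a-Cre transgene and were also studied in CS (n = 3) and SD (n = 3). The floxed alleles are thus shared by both of these genotypes, and the transgene drives recombination in Camk2a-expressing cells, so that other cells of the tissue keep an intact exon. According to the study's methods some cKO mice also had recombined alleles in the tail, and loss of a Mef2c copy outside excitatory neurons may then be part of that group.

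Excitatory neurons of the neocortex are generated in sequence and settle in layers with different targets. Upper layer neurons mostly connect cortical areas with each other, and deep layer neurons send axons to the thalamus, brainstem and spinal cord. Each fate is set and kept by a small network of transcription factors that repress the programs of neighbouring layers. Cux1 and Cux2 are homeodomain factors of upper layer neurons. Fezf2 is a zinc finger factor needed for neurons that project below the cortex, and Bcl11b (CTIP2) acts downstream of it. Tbr1, a T-box factor, opposes that program in neurons that project to the thalamus, where the forkhead factor Foxp2 and the Groucho family corepressor Tle4 are also found. Foxp1 is a forkhead factor of several layers, and Neurod6 (NEX) is a basic helix-loop-helix factor of pyramidal neurons in general. Bcl11b, Foxp1 and Foxp2 are also known in the projection neurons of the striatum, which lies under the frontal cortex.

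All 9 members were detected in every library and passed the filter on low values in all 9 comparisons. Recovered totals ran from 18935045 to 249046089 reads per library, and levels are given as rescaled CPM (reads per 1000000, divided by a median-of-ratios factor, 0.717 to 1.143). All 8 excitatory neuron markers, among them Slc17a7 and Camk2a, were at 1 CPM or more in every library. Of the 11 striatal projection neuron markers used, 8 were at 1 CPM or more in every library, Drd2, Adora2a and Ppp1r1b included. The summed level of the 11 ran from 612.8 to 1820.0 rescaled CPM. The part of striatal tissue in the bulk level of the 3 members known in both tissues was not tested. The count of Mef2c covers the whole gene and so does not check the deletion of exon 11. It had a mean of 1145 ± 67.2 (SD, n = 4) rescaled CPM in f/f CS and 1429 ± 414 (SD, n = 3) in cKO CS, and was not called different between these genotypes in CS (adjusted p = 0.382, limma) or SD (adjusted p = 0.82, limma).

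Cux1 and Cux2 were the only members called between cKO and f/f in both sleep states in the main fit. The letters in front of their starts are therefore shown here with the motifs that were searched. The windows are the 250 bases before each RefSeq start on GRCm38.p6 (mm10), 5′ to 3′ in the direction of the gene, and capitals mark matches. Both genes lie on the minus strand of chromosome 5, Cux1 at chr5:136248135-136567490 and Cux2 at chr5:121856366-122050102 in GENCODE M21, and Cux2 has separate RefSeq starts with a window each.
Cux1, chr5:136565982-136566231, minus strand: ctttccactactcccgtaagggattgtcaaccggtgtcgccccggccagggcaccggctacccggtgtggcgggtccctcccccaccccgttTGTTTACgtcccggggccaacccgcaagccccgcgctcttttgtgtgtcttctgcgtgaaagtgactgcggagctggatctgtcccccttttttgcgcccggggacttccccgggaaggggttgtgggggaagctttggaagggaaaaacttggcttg
Cux2, chr5:122049852-122050101, minus strand: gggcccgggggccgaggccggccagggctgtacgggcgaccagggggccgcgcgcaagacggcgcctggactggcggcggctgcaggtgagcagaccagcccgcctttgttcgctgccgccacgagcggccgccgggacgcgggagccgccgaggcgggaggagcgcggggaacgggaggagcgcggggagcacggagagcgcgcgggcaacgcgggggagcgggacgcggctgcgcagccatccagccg
Cux2, chr5:122047826-122048075, minus strand: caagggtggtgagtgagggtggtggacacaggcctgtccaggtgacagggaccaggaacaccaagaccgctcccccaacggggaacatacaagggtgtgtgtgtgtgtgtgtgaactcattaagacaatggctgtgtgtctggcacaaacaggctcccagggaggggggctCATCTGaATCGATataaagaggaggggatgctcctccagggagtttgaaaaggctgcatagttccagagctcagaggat
In the Cux1 window the capitals are the forkhead core TGTTTAC, 158 bases before the start. In the Cux2 window at the inner start they are CATCTG, the reverse complement of the NEUROD E-box CAGATG, and ATCGAT, the core bound by CUX proteins, 79 and 72 bases before that start. The outer Cux2 window, with 80% G and C, held none of the motifs, compared with 62.8% and 55.2% G and C in the others. Both strands were searched, and the matches did not overlap. Over all 32851 windows of this length, 3.17% held the forkhead core, 14.4% the NEUROD E-box and 0.728% the CUX core. Windows were found for 8 of the 9 members, 12 in all, and the other 9 windows held no match to these motifs, to the T-box core AGGTGTGA (1.12% of all windows) or to the MEF2 site (2.92%), which was searched as its consensus and was in 0 of the 12 member windows. A match is a string of letters and not a bound site.

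Levels of different genes were set side by side per kilobase (kb) of annotated exon, as means over the 33 libraries. Neurod6 (30.6 ± 12.7, SD, rescaled CPM per kb), Tle4 (27.0 ± 3.59) and Foxp1 (19 ± 3.21) were at the upper end. Bcl11b (14.3 ± 2.58) and Tbr1 (13.0 ± 2.09) were in the middle. Cux2 (9.21 ± 1.66), Foxp2 (8.49 ± 3.28) and Cux1 (8.15 ± 1.48) were within their SDs of each other, and Fezf2 was lowest at 4.96 ± 1.22. The order within the upper end depended on the length used and on the group. Per kb of the longest annotated transcript, a choice made after seeing the data, Foxp1 (36.4 ± 6.16) and Tle4 (33.8 ± 4.51) had higher means than Neurod6, and Foxp2 (20.5 ± 7.93) moved above Bcl11b. In f/f CS Neurod6 had 24.6 rescaled CPM per kb of exon and Tle4 26.4, where in WT CS they had 42.9 and 31.8. Neurod6 and Foxp2 varied most between libraries, with a highest over lowest level of 6.02 and 4.58, while Tle4 varied least (1.64). When the 7 groups were put in order of their mean for each member, 49 of the 54 steps between neighbouring groups were within the larger of their SDs. The other 5 steps were those from cKO CS to cKO SD for Cux1, from WT RS to cKO CS and from cKO CS to cKO SD for Cux2, from cKO SD to f/f SD for Foxp2, and from WT CS to f/f SD for Tle4. Both cKO groups were lowest for Cux1, Cux2, Foxp1, Fezf2 and Tle4.

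**Figure D1:**
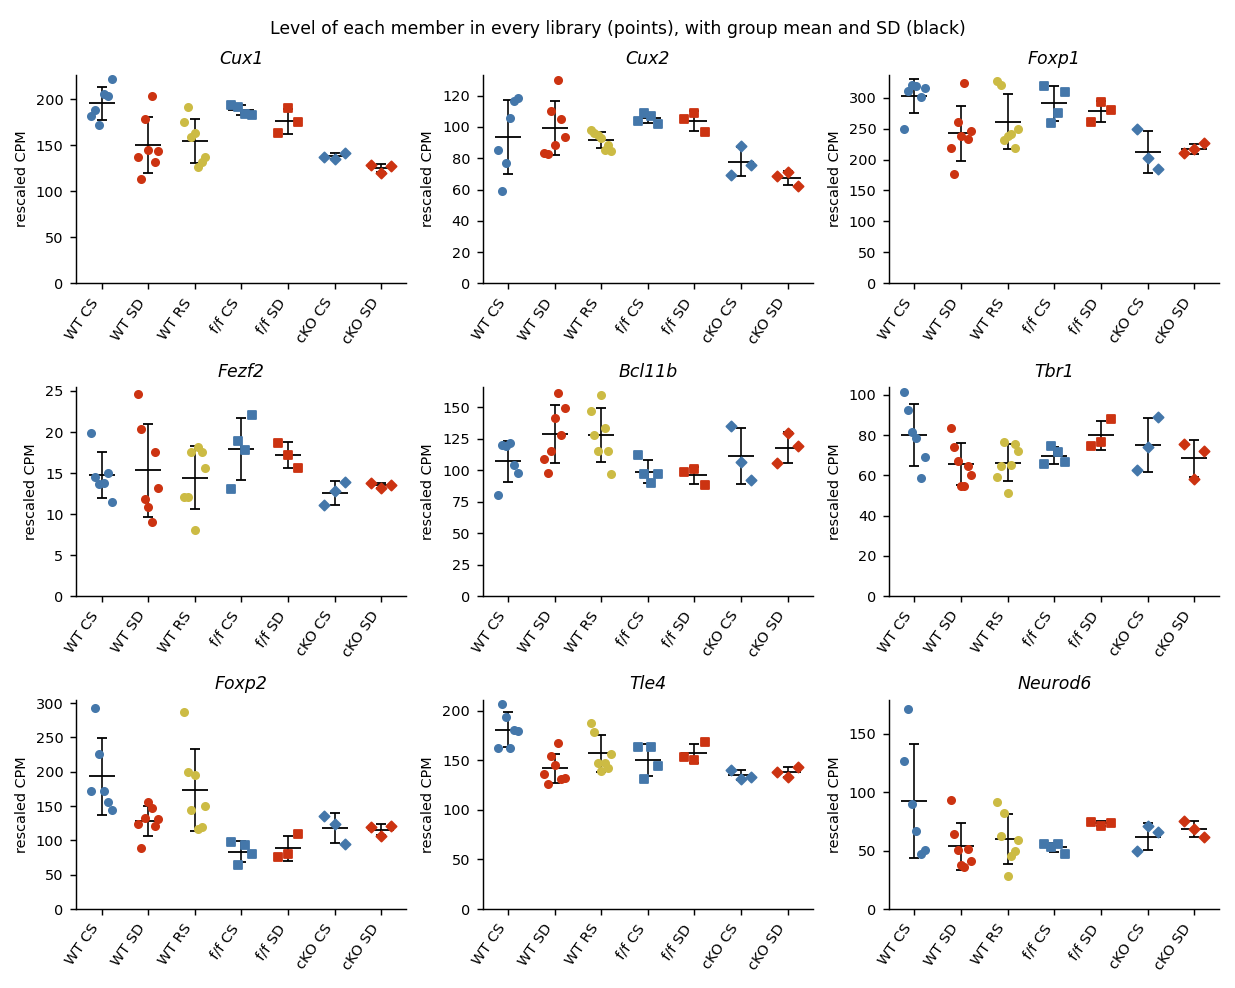
Rescaled CPM of the 9 members (vertical axes, from 0) in every library of the 7 groups (horizontal axes), with circles for WT, squares for f/f, diamonds for cKO, and black lines for the group mean and SD. For Cux1 the 6 cKO libraries lie between 120.0 and 142.1 and the 7 f/f libraries between 163.3 and 194.0.

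The comparison of Mef2c-cKO with Mef2c f/f asks how the members differ where Mef2c has been deleted in Camk2a-expressing neurons. The f/f mice lack the Cre transgene and no group had the transgene alone. Effects of the transgene and of the loss of Mef2c therefore cannot be told apart here. Cux1 and Cux2 fell in cKO mice in both sleep states, and Foxp1 and Fezf2 fell in SD. In CS 2 of the 9 members were called, both lower, where 7.67% of all 12681 genes were called and 4.5% were called lower. In SD 4 of the 9 were called, all lower, where 15.1% of 12774 genes were called and 5.99% were called lower. A member was called where limma gave a p of at most 0.05 after Benjamini-Hochberg adjustment over all genes tested and a log2 fold change of at least 0.3 in size. The median log2 fold change of the 9 members was -0.15 in CS and -0.22 in SD, beside 0.03 and 0.01 over all genes tested. With CPM as deposited the calls over all genes moved from 402 higher and 571 lower to 882 and 346 in CS, where 1 member (Cux1) was still called, and from 1162 and 765 to 1694 and 492 in SD, where 4 members were then called, Cux1 and Cux2 lower and Bcl11b and Foxp2 higher. In bulk tissue, fewer cells of a type and less RNA per cell cannot be told apart.

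Cux1, which promotes dendrite and spine formation in upper layer neurons, had rescaled CPM of 194.0, 191.3, 184.6 and 182.9 in f/f CS. In cKO CS it had 137.6, 135.6 and 142.1. The groups did not overlap, and the log2 fold change was -0.44 (SE 0.07, adjusted p = 0.0131, limma). In SD the 3 f/f libraries had 163.3, 190.5 and 175.7 and the 3 cKO libraries 128.6, 120.0 and 127.5. Every cKO library was again below every f/f library, and the log2 fold change was -0.49 (SE 0.07, adjusted p = 0.00449, limma).

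Cux2, the close relative of Cux1 in the same layers, had 104.0, 109.1, 106.9 and 101.8 rescaled CPM in f/f CS. In cKO CS it had 69.41, 87.97 and 75.97. These groups too were separate, with a log2 fold change of -0.44 (SE 0.09, adjusted p = 0.0277, limma). In SD the f/f libraries had 105.1, 108.9 and 96.63 and the cKO libraries 68.48, 71.28 and 62.4. This was the member with the lowest log2 fold change of the comparison, -0.62 (SE 0.08, adjusted p = 0.00201, limma), at percentile 1.7 of all genes tested. Leaving out 1 CS library at a time kept the log2 fold change of Cux1 at -0.43 to -0.46 and that of Cux2 at -0.36 to -0.53, while 0 to 3 members were called. Without f/f CS replicate 2 no member was called and calls over all genes fell to 1.38%. Cux2 was not called without f/f CS replicate 3 or cKO CS replicate 5 or 8 (4.26% to 4.79% of all genes called), and Cux1 was not without cKO CS replicate 7 (1.34%).

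Foxp1 in SD had 260.5, 293.4 and 279.9 rescaled CPM in f/f mice and 209.8, 216.7 and 226.2 in cKO mice, without overlap, and a log2 fold change of -0.35 (SE 0.07, adjusted p = 0.0127, limma). In CS the f/f libraries had 318.2, 259.6, 275.3 and 309.6 and the cKO libraries 249.5, 202.5 and 185.0. The CS groups did not overlap either, but the difference of -0.46 missed the threshold (SE 0.12, adjusted p = 0.0537, limma). Fezf2 is the member with the lowest level, and in SD it had 18.7, 17.21 and 15.56 rescaled CPM in f/f mice against 13.81, 13.21 and 13.54 in cKO mice. Its log2 fold change there was -0.33 (SE 0.09, adjusted p = 0.0398, limma), and the call was lost without any 1 of the SD libraries except cKO replicate 6 (adjusted p of 0.0507 to 0.154, limma). Foxp1 lost its SD call without f/f SD replicate 3 (adjusted p = 0.0541, limma), and with CPM as deposited (-0.28) and quantile normalization (-0.27) it fell short of the fold threshold. In CS the Fezf2 values overlapped, with 13.01, 18.89, 17.83 and 22.04 in f/f and 11.05, 12.79 and 13.96 in cKO (-0.48, SE 0.17, adjusted p = 0.113, limma). DESeq2 on the recovered reads called Cux1, Cux2, Foxp1 and Fezf2 lower in CS, 4 members against the 2 of limma, and it called 16.5% of all genes against 7.67%. A fit over all 7 groups with a shared estimate of the spread called only Cux1 and Cux2 in SD. In CS that fit called Cux1 and Foxp1 (adjusted p = 0.0365 for Foxp1, limma), and Cux2 was not called (adjusted p = 0.0647, limma). It called 12.9% of all genes in CS and 5.4% in SD.

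The other deep layer members did not pass the test in limma with rescaled CPM. Bcl11b had 98.76, 101.1 and 88.03 rescaled CPM in f/f SD and 105.5, 129.5 and 119.3 in cKO SD. All cKO values were above the f/f values, with a log2 fold change of 0.30 (SE 0.09, adjusted p = 0.0564, limma). Bcl11b was called higher with CPM as deposited (0.37, adjusted p = 0.0293, limma) and with quantile normalization (0.35, adjusted p = 0.0379, limma). Foxp2 had 76.45, 80.07 and 109.0 in f/f SD and 119.8, 106.3 and 121.3 in cKO SD, a log2 fold change of 0.40 (SE 0.13, adjusted p = 0.0669, limma). It was called higher with CPM as deposited (0.48, adjusted p = 0.0292, limma), with the GC and length correction (0.44, adjusted p = 0.0355, limma) and by DESeq2 (0.37, adjusted p = 0.0374). In CS Foxp2 had 98.01, 63.95, 93.15 and 79.86 in f/f and 136.1, 124.2 and 94.53 in cKO (0.50, SE 0.17, adjusted p = 0.0987, limma). The Foxp2 groups overlapped in both states.

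Tle4 had 153.2, 150.1 and 168.4 rescaled CPM in f/f SD and 138.6, 132.9 and 142.8 in cKO SD. Its groups were separate, and the log2 fold change of -0.18 (SE 0.07, adjusted p = 0.094, limma) did not pass the test. In SD 6 of the 9 members had groups without overlap, 5 lower and 1 higher (Bcl11b), where 40.3% of all genes did, 18.7% lower and 21.6% higher. In CS 3 of the 9 did, all lower (Cux1, Cux2 and Foxp1), where 26.9% of all genes did and 13.5% were lower. Tbr1 in SD had 74.69, 76.68 and 88.16 in f/f and 75.4, 58.07 and 72.19 in cKO, and was not called (-0.22, adjusted p = 0.188, limma). Neurod6 overlapped in both states, with a log2 fold change of 0.21 in CS (adjusted p = 0.305, limma) and of -0.10 in SD (adjusted p = 0.419, limma).

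**Figure D2:**
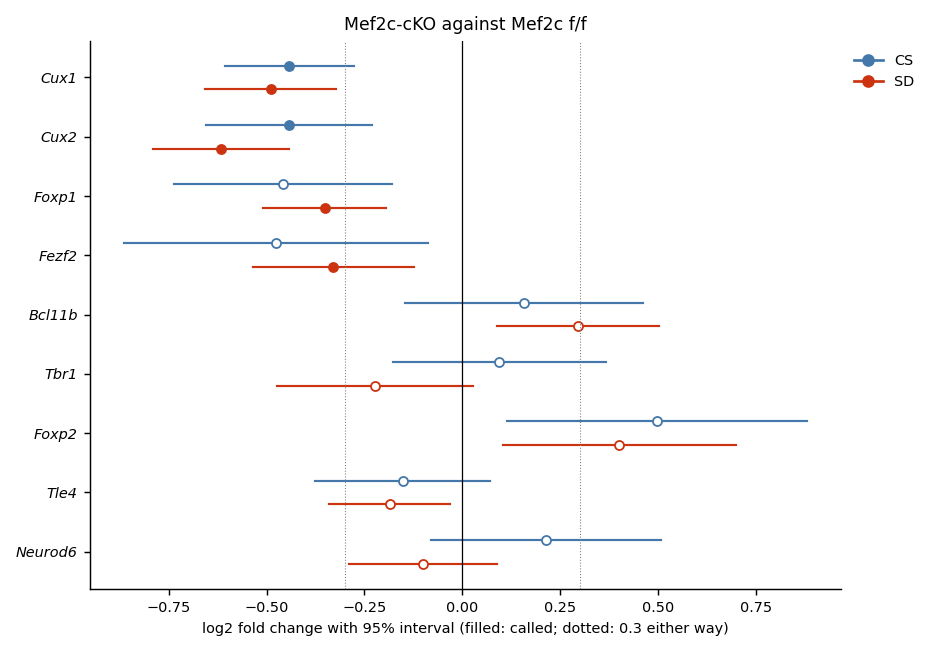
Log2 fold change of each member in Mef2c-cKO against Mef2c f/f mice (horizontal axis, lines for 95% intervals from limma) in CS (blue) and SD (red), with filled points for called members. Cux1 and Cux2 are filled in both states, and Foxp1 and Fezf2 in SD only, and the difference between the states was called for no member (interaction terms of limma, adjusted p of 0.653 to 0.947).

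Cell type markers moved with these groups. The summed level of the 8 excitatory neuron markers was 3180 to 3530 rescaled CPM in cKO SD and 3980 to 4190 in f/f SD, with 1 of the 8 called lower, and in CS it was 3170 to 3600 in cKO and 3590 to 4190 in f/f, also with 1 called lower. The 10 inhibitory neuron markers summed to 1020 to 1080 in cKO SD and 719 to 803 in f/f SD, with 6 called higher and 2 lower. The 6 microglia markers summed to 185 to 204 in cKO SD and 149 to 155 in f/f SD, with 4 called higher. In CS the microglia sums were apart too, 163 to 435 in cKO and 137 to 158 in f/f, with 0 of 6 called but all 6 positive (median log2 fold change 0.72). Also in CS, 2 oligodendrocyte, 2 meningeal fibroblast, 1 astrocyte and 1 inhibitory neuron marker were called higher and 1 endothelial marker lower. Striatal markers overlapped between the SD groups (820.9 to 1338 in cKO and 723.6 to 1154 in f/f), with 2 of 11 called higher. Of the remaining lists in SD, 2 of 8 astrocyte, 2 of 5 endothelial and 0 of 6 meningeal fibroblast markers were higher, and 1 of 9 oligodendrocyte markers was higher and 1 lower. The part of these markers in the members' differences was not tested.

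Other genes of the same programs were counted for the cKO comparison in SD. Of 25 tested layer and identity factors beside the members, 7 were lower, 3 were higher and 15 were not called, with a median log2 fold change of -0.18. Rorb, a factor of the middle layer that receives thalamic input, had a log2 fold change of -0.89 (adjusted p = 0.00438, limma). Among 10 upper layer genes 3 were lower and 2 higher, with Rspo1 at -1.56 (adjusted p = 0.000215, limma), Lamp5 at -1.15 (adjusted p = 0.00128, limma) and Mdga1 at 1.24 (adjusted p = 0.00441, limma). Of 19 deep layer genes 7 were higher and 0 lower, among them Htr2c at 1.11 (adjusted p = 0.00402, limma), Syt6 at 0.84 (adjusted p = 0.0044, limma) and Ntsr1 at 0.71 (adjusted p = 0.0177, limma). The 7 higher deep layer genes include markers of neurons that project to the thalamus (Syt6, Ntsr1), in which the members Tbr1, Foxp2 and Tle4 are also found. These members did not share that direction in SD. Tbr1 (-0.22) and Tle4 (-0.18) had log2 fold changes below 0 and Foxp2 (0.40) above 0, and none of them was called in limma with rescaled CPM. With the other scalings and the GC correction 4 to 9 of the deep layer genes were higher and 0 lower. Over all 12774 genes tested in SD, 1162 were higher and 765 lower. In CS 2 of the 19 deep layer genes were higher and 1 lower. Of 25 layer and identity factors 0 were higher and 1 lower in CS, and of 10 upper layer genes 2 were higher and 2 lower. Over all 12681 genes tested in CS, 402 were higher and 571 lower. None of the 8 tested family relatives of the members (such as Foxp4, Tle3 and Bcl11a) was called by limma in cKO SD or CS.

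In WT mice, the comparison of CS with SD asks how 6 hr without sleep changed the members. Cux1, Foxp1, Foxp2 and Tle4 were called lower with rescaled CPM, and the other 5 members were not called. That is 4 of 9 called, all lower, where 45.1% of 12913 genes tested were called, 20.5% of them lower and 24.6% higher as shares of all genes. The share of members called was thus near that over all genes. The median log2 fold change of the 9 members was -0.34, beside 0.04 over all genes. In all 9 members the CS and SD libraries overlapped, where 15.1% of all genes did not. With the CPM as deposited the median of all genes moved to 0.30 and that of the members to -0.06, 6106 genes were higher and 801 lower in place of 3182 and 2643, and 1 member was called (Bcl11b, higher). The 4 members called with rescaled CPM all lost their calls there, with the GC and length correction and with the replicate block. Those settings called 53.5%, 20.5% and 2.22% of all genes.

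Tle4 had the smallest adjusted p of the members. Its WT CS libraries ran from 162.0 to 206.6 rescaled CPM (median 180.6, n = 6) and its SD libraries from 126.2 to 168.0 (median 136.4, n = 7). Only the highest SD library reached into the CS range, and the log2 fold change was -0.35 (SE 0.09, adjusted p = 0.00655, limma). Foxp2 ran from 143.8 to 292.7 in CS (median 171.6) and from 88.45 to 156.5 in SD (median 131.6), with a log2 fold change of -0.56 (SE 0.16, adjusted p = 0.0133, limma). It was the largest difference among the called members, with replicates 2 and 3 of CS (292.7 and 226.0) above all others of that group. Cux1 ran from 171.8 to 221.7 in CS (median 196.1) and from 113.9 to 204.0 in SD (median 144.1), and its log2 fold change was -0.39 (SE 0.12, adjusted p = 0.0163, limma). Foxp1 ran from 249.1 to 320.6 in CS (median 313.1) and from 176.3 to 323.7 in SD (median 238.8), with one of -0.34 (SE 0.12, adjusted p = 0.0278, limma). For Cux1 and Foxp1 alike, SD replicate 6 was the highest of its group (204.0 and 323.7) and lay inside or above the CS range.

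The call of Foxp1 was lost without CS replicate 3, SD replicate 2 or SD replicate 8, and Neurod6 and Tbr1 were called lower as well without CS replicate 5 or SD replicate 1. The calls also changed with a correction for sequence composition. Log2 fold changes of this comparison rose with the GC content of transcripts over all genes (Spearman rho 0.721 across 12442 genes, which are not independent replicates). The 4 members called lower have transcripts with 42.6% (Foxp2), 44.9% (Foxp1), 47.5% (Tle4) and 50% (Cux1) GC. After a correction for GC content and transcript length Foxp1 had a log2 fold change of -0.05 (adjusted p = 0.705, limma) and Foxp2 one of -0.20 (adjusted p = 0.164, limma). Cux1 (-0.27, adjusted p = 0.0332, limma) and Tle4 (-0.26, adjusted p = 0.0147, limma) then missed the fold threshold only, while Bcl11b was called higher (0.32, adjusted p = 0.0415, limma) and Tbr1 lower (-0.44, adjusted p = 0.0299, limma). In cKO against f/f the rho with GC content was 0.017 in CS and 0.241 in SD, and the correction kept the calls of Cux1 and Cux2 in both states.

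Of the members not called in WT SD, Neurod6 had the lowest log2 fold change (-0.69, SE 0.30, adjusted p = 0.0605, limma). Its CS libraries were spread from 47.29 to 171.6 rescaled CPM, with replicates 1, 2 and 3 at 126.8, 171.6 and 89.85 and replicates 4, 5 and 6 at 67.01, 47.29 and 50.91, and its SD libraries ran from 35.71 to 93.47. edgeR on the recovered reads called it lower (adjusted p = 0.0444). Tbr1 ran from 58.69 to 101.2 in CS and from 54.54 to 83.31 in SD (-0.28, SE 0.13, adjusted p = 0.0801, limma). Bcl11b ran from 80.68 to 121.6 in CS and from 97.99 to 161.9 in SD (0.26, SE 0.13, adjusted p = 0.0983, limma). Cux2 (0.10, 95% interval -0.24 to 0.44) and Fezf2 (-0.00, 95% interval -0.44 to 0.43) had intervals on both sides of the fold threshold of 0.3. Unlike Cux1, the related Cux2 was therefore neither called nor bounded within that threshold. WT CS replicates 1 and 2, SD replicate 1 and RS replicate 1 have the lowest sums of listed genes, under 950000 CPM, and without them 3 members were called (Cux1, Foxp1 and Tle4) while Foxp2 was not (-0.43, adjusted p = 0.0523, limma).

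**Figure D3:**
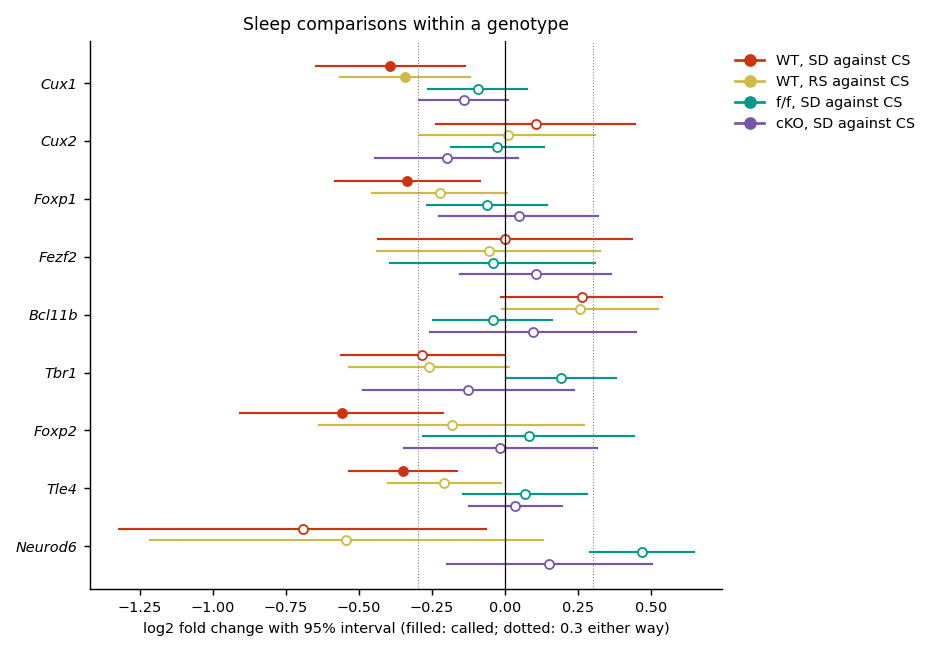
Log2 fold change of each member (horizontal axis, lines for 95% intervals from limma) for SD and RS against CS in WT mice and for SD against CS in f/f and cKO mice, with filled points for called members. The WT points of Cux1, Foxp1, Foxp2 and Tle4 lie at -0.34 to -0.56 in SD under the scaling used here, while no f/f or cKO point is filled.

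Among 24 tested layer and identity factors, 11 were lower and 4 higher in WT SD (median log2 fold change -0.30), and with CPM as deposited 6 were lower and 6 higher. Rorb (-0.89, adjusted p = 0.000615, limma), Zfpm2 (-0.86, adjusted p = 0.00196, limma) and Sox5 (-0.79, adjusted p = 0.00131, limma) were lower in every SD library than in any CS library. Crym (0.81, adjusted p = 0.00741, limma) and Pou3f1 (0.79, adjusted p = 0.00292, limma) rose. These values are from rescaled CPM without the GC and length correction, which cut calls over all genes from 45.1% to 20.5%. Of 8 tested family relatives of the members 4 were higher and 0 lower, and after the GC correction 1 was higher and 2 were lower. Among the 4 were the Groucho relatives Tle3 (0.59, adjusted p = 0.00292, limma) and Aes (0.64, adjusted p = 0.00824, limma) and the forkhead relative Foxp4 (0.36, adjusted p = 0.0365, limma). Of 10 upper layer genes 2 were lower and 2 higher, and of 18 tested deep layer genes 4 were lower and 2 higher, a balance that turned to 1 lower and 5 higher with CPM as deposited. Striatal markers summed to 787 to 1680 in CS and 918 to 1770 in SD, with 4 of 11 called higher. Summed excitatory neuron markers ran from 3480 to 3950 rescaled CPM in CS and from 3430 to 3760 in SD. Summed meningeal fibroblast markers, of which 2 of 6 were at 1 CPM or more in every library, were at 8.81 to 38.7 in CS and 44.4 to 72.1 in SD, with 3 of 5 tested called higher, and the part of that difference in the members' values was not tested.

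After recovery sleep, compared with the same WT CS libraries, Cux1 was the only member called by limma. It ran from 126.6 to 191.4 rescaled CPM in RS (median 158.7, n = 7), with a log2 fold change of -0.34 (SE 0.10, adjusted p = 0.0416, limma). That is 1 of 9 called where 17.5% of 12752 genes were, 8.22% of them lower as a share of all genes. With 1 library left out at a time the log2 fold change of Cux1 stayed between -0.30 and -0.40, while its adjusted p was as high as 0.0872 (limma) and passed without CS replicate 5, RS replicate 1 or RS replicate 2 only. Calls over all genes ran from 0 to 29.2% in these fits, with 0 genes called without CS replicate 3 or RS replicate 3, 5, 6 or 12, and Tbr1 was called as well without CS replicate 5. Bcl11b was the only member called with CPM as deposited (0.44, adjusted p = 0.0434, limma), where the median of all genes was 0.20 and the calls over all genes moved from 1184 higher and 1048 lower to 2350 and 315. Tle4 (-0.21, adjusted p = 0.0899, limma), Foxp1 (-0.22, adjusted p = 0.117, limma) and Tbr1 (-0.26, adjusted p = 0.12, limma) were not called. Foxp2 in RS was spread from 117.2 to 286.5 (-0.18, SE 0.21, adjusted p = 0.496, limma). All 9 members overlapped between CS and RS, where 3.72% of genes did not. Of 11 striatal markers 6 were called higher in RS and 0 lower (median log2 fold change 0.64, sums of 1070 to 1820), and their part in the members' values was not tested.

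Between WT SD and RS, limma called 0 of the 9 members, and 0.0232% of 12921 genes. None had an unadjusted p of at most 0.05, where 5.29% of genes did, and edgeR and DESeq2 called 0. Foxp2 had the largest difference, 0.38 higher in RS on the log2 scale (SE 0.18, unadjusted p = 0.0515, adjusted p = 0.941, limma), at percentile 99.1 of all genes.

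In Mef2c f/f mice limma called 0 of 9 members between CS and SD, where 0.0403% of 12410 genes were called, with 2 members (Neurod6 and Tbr1) at an unadjusted p of at most 0.05, where 17% of genes were. edgeR called 0 and DESeq2 called 1, Neurod6. Neurod6 had 55.28, 53.49, 55.74 and 47.24 rescaled CPM in CS and 74.66, 71.15 and 74.0 in SD. All SD values were above all CS values, as for 8.53% of genes (17.4% in either direction), and the log2 fold change was 0.47 (SE 0.08, adjusted p = 0.074, limma). It passed with DESeq2 (adjusted p = 6.41e-05), with the correction for GC content and length (0.36, adjusted p = 0.042, limma) and without f/f CS replicate 1. No other member had separate groups, and their log2 fold changes ran from -0.09 (Cux1) to 0.19 (Tbr1).

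In Mef2c-cKO mice limma called 0 of 9 members between CS and SD, where 0.0234% of 12810 genes were called, with 0 at an unadjusted p of at most 0.05 (3.05% of genes), and edgeR and DESeq2 called 0. Cux1 had 137.6, 135.6 and 142.1 in CS and 128.6, 120.0 and 127.5 in SD. Every SD value was below every CS value, as for 4.56% of genes (9.05% in either direction), but the log2 fold change of -0.14 (95% interval -0.30 to 0.01, adjusted p = 0.998, limma) did not pass. The other members lay between -0.20 (Cux2) and 0.15 (Neurod6).

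Whether the SD response differed between genotypes was tested with interaction terms, called on the adjusted p alone. For cKO minus f/f, limma, edgeR and DESeq2 called 0 of 9 members, none had an unadjusted p of at most 0.05 (7.81% of genes did), and 0.00778% of 12860 genes were called. The lowest terms were those of Tbr1 (-0.32, 95% interval -0.70 to 0.06) and Neurod6 (-0.32, 95% interval -0.68 to 0.04). For f/f minus WT, 1 of 9 was called (Tle4, 0.42, SE 0.14, adjusted p = 0.0475, limma) where 15.1% of 13106 genes were, 9.35% of them higher as a share of all genes. The call of Tle4 was lost without any 1 of 12 of the 20 libraries, and with CPM as deposited (0.16, adjusted p = 0.304, limma). In WT Tle4 was lower by 0.35 on the log2 scale in SD, and in f/f it had a log2 fold change of 0.07 (SE 0.10). Neurod6 had the largest term, 1.16 (SE 0.43, adjusted p = 0.0645, limma), from -0.69 in WT and 0.47 in f/f. WT and f/f libraries also differ in the sum of their listed genes (925580 to 985958 CPM in WT and 1000000 in f/f), so that genotype and the way the tables were made cannot be told apart here.

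Across the 33 libraries the members varied together in part, which is given as a description over libraries that share groups, depth and composition. Of 36 pairs 21 had a Pearson r above 0, and r ran from -0.72 to 0.851. Cux1 went with Foxp1 (0.851), Foxp1 with Tle4 (0.813) and Tbr1 with Neurod6 (0.772). Tbr1 and Bcl11b, whose programs oppose each other in development, had the lowest r (-0.72), and Fezf2 and Bcl11b, which act in the same neurons, had one of -0.64. After group means were removed, Cux1 and Foxp1 had an r of 0.728, Foxp1 and Tle4 of 0.753, Tbr1 and Neurod6 of 0.738, Tbr1 and Bcl11b of -0.686 and Fezf2 and Bcl11b of -0.669. Cux1 and Cux2 had an r of 0.62 (0.599 after removal).

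**Figure D4:**
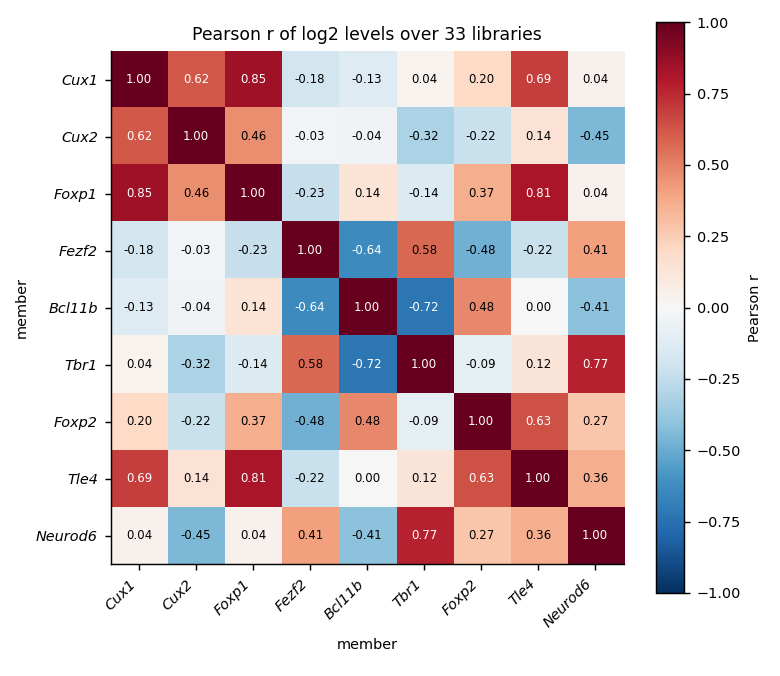
Pearson r between the log2 levels of each pair of members over 33 libraries, on a color scale from -1 (blue) to 1 (red). Cux1, Foxp1 and Tle4 form a red block with r from 0.695 to 0.851, and Bcl11b is blue against Tbr1 and Fezf2.

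The summed striatal projection neuron markers moved with several of these members. With group means removed, their r with Bcl11b was 0.799 and with Foxp1 0.732, while Tbr1 had an r of -0.81, Fezf2 of -0.542 and Neurod6 of -0.492. Cux1 (0.393), Cux2 (0.295), Foxp2 (0.32) and Tle4 (0.292) were in between. WT CS replicate 1 had the lowest striatal sum of its group (786.8, where the others had 1202.0 to 1684.0), and it also had the lowest Bcl11b (80.68) and Foxp1 (249.1) and the highest Tbr1 (101.2) and Fezf2 (19.89) of the WT CS libraries. Its Foxp2 (171.8) lay inside the range of the group (143.8 to 292.7). This library is also 1 of those with a listed sum under 950000 CPM (939166.8). The part of striatal tissue in these levels was not tested.

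**Figure D5:**
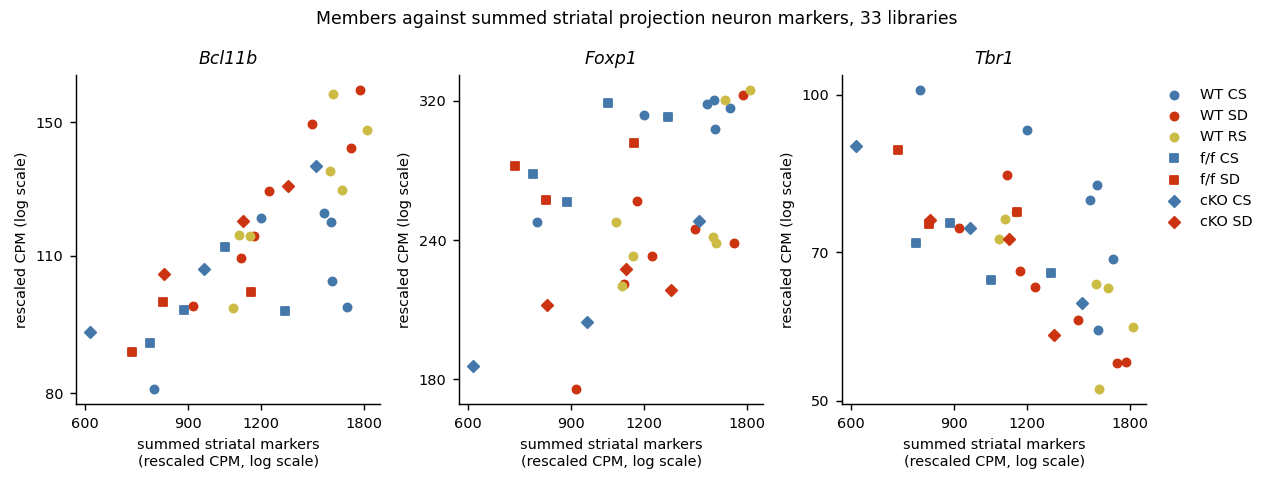
Rescaled CPM of Bcl11b, Foxp1 and Tbr1 (vertical axes, log scale) against the summed rescaled CPM of 11 striatal projection neuron markers (horizontal axes, log scale), with 1 point for each of 33 libraries. Bcl11b goes up and Tbr1 goes down with the striatal sum, with r of 0.763 and -0.679 before group means are removed.

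The genes whose levels were most like each member's, by Pearson r over the 33 libraries, differed between members. For Cux1 they were Apbb2 (0.93), Nedd4l (0.926) and Tmem178b (0.92), and for Cux2 Arhgap39 (0.861), Plekha6 (0.859) and Man1c1 (0.848). Foxp1 shared Nedd4l (0.884) with Cux1, followed by Atxn1 (0.879) and Rnf150 (0.875). Bcl11b was closest to Prkch (0.854), to Rgs9 (0.833), which is 1 of the striatal markers, and to Necab2 (0.83). Foxp2 had the closest neighbour of all members, Dgkb (0.948), with Pcdh11x and Zfp804a at 0.933. Tle4 was closest to Papd4 (0.915), Zmym4 and Vps13b (both 0.908), and Neurod6 to Eif3a (0.912), Pik3r1 (0.903) and Lrrtm2 (0.9). Tbr1 was closest to Ywhah (0.817), Jak1 (0.803) and the layer factor Lmo4 (0.783). Fezf2 had the weakest neighbours, Psmc1 (0.773), Cckbr (0.77) and Sbds (0.756).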

How the data were processed

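Stranded polyadenylated RNA-seq libraries of frontal cortex were measured. The authors used FASTQC and Trimmomatic on the reads, STAR for alignment to mm10, HTSeq for unique read counts and edgeR for the deposited CPM, without the versions and the annotation release being given in the sources used here. From the CPM, whole reads were recovered (100.0% of 711645 values within 0.01 of a whole number). Here each library's CPM was rescaled by a factor (median of ratios over 11570 genes), 0.5 was added and log2 taken, so that fold changes are on that scale. Groups were taken from the labels, and a gene entered a test if every replicate of 1 compared group had at least 1 CPM. Comparisons were fitted over all such genes with limma 3.58.1 (lmFit, eBayes with a trend) in R 4.3.3, with the compared groups alone and Benjamini-Hochberg adjustment; edgeR 4.0.16 and DESeq2 1.42.0, the study's tool, were alternatives on the recovered reads. Fold changes of a pair of comparisons that share a group are not independent. The procedure was tested on simulated counts with log2 fold changes of 1 either way and no shift in scaling or GC content. That test does not cover smaller differences or such shifts. GC content and lengths came from GENCODE M21 (19468 symbols matched). Other alternatives were the CPM as deposited without rescaling, quantile normalization, pseudocounts of 0.1 and 1, a test of unfiltered genes, a CPM of at least 5 throughout, a correction for GC content and length, 1 fit over all 7 groups, no fold threshold, a replicate block and each library left out. The named genes are all members, Mef2c, fixed lists of layer factors, family relatives, layer genes and cell type markers, and the 3 genes most like each member. The members and lists were chosen with earlier results of these data known.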

Additional observations from a re-analysis of the deposited data

Results flagged for a closer look

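Foxp1 in WT CS replicate 1 stood apart from the rest of its group, at 249.1 rescaled CPM where the other 5 libraries had 301.6 to 320.6. Its gap to the nearest library was 0.734 of the range of the group, above Dixon's limit of 0.625 for 6 samples. Of 36 groups of 4 to 7 libraries examined over the 9 members this was the only 1 to do so, where chance gives about 1 in 20. The same library had the lowest sum of striatal markers in its group, 786.8 rescaled CPM.

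The response of Tle4 to SD differed between f/f and WT mice by 0.42 on the log2 scale (interaction term of limma, adjusted p = 0.0475). It lost the call in edgeR (adjusted p = 0.053) and, in limma, with the GC correction (adjusted p = 0.0908). The call was also lost with CPM as deposited (0.16, adjusted p = 0.304, limma) and quantile normalization (0.24, adjusted p = 0.145, limma). So it was without the WT libraries under 950000 CPM (0.40, adjusted p = 0.0589, limma). Over all genes these interaction terms had a Spearman rho of -0.756 with GC content (12631 genes).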

How the results depend on the processing

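Members called without 1 library at a time numbered 3 to 6 for WT CS to SD, 0 to 2 for CS to RS, 0 to 1 for f/f CS to SD, 0 to 3 for cKO against f/f in CS, 3 to 5 in SD and 0 to 3 for the f/f minus WT interaction, and 0 throughout for WT SD to RS, cKO CS to SD and the cKO minus f/f interaction. Beside 4 members in WT CS to SD, 1 was called with CPM as deposited, 2 with quantile normalization, 2 with the GC and length correction and 1 with the replicate block. Over all genes these settings called 53.5%, 38.6%, 20.5% and 2.22%, in that order, beside 45.1% in the main fit. Beside 1 in CS to RS, 0 were called with quantile normalization, without a filter and with the GC correction, and 2 without the WT libraries under 950000 CPM, an alternative added after seeing the data. Of all genes 13.5%, 1.99%, 5.17% and 12.5% were called in these settings, in that order, beside 17.5%. Beside 0 in f/f CS to SD, DESeq2 and the GC correction called 1 (3.76% and 0.945% of all genes, beside 0.0403%). Beside 2 in cKO against f/f in CS, CPM as deposited gave 1 and DESeq2 4, and beside 4 in SD, 1 fit over all 7 groups gave 2. The shares of all genes were 9.68% and 16.5% in CS, beside 7.67%, and 5.4% in SD, beside 15.1%. In CS the fit over all 7 groups also called 2, with Foxp1 in place of Cux2, and 12.9% of all genes. Beside 1 in the f/f minus WT interaction, 0 were called with quantile normalization, no filter, edgeR, the GC correction and the replicate block, and 2 with DESeq2 and with 1 fit over all 7 groups. Of all genes 10.7%, 5.94%, 12.8%, 2.22% and 0% were called in the former, and 21.2% and 23% in the latter, beside 15.1%. With CPM as deposited 26.1% of all genes were called, and Bcl11b was called in place of Tle4. The cause was not tested. No member reversed with a call, while 73 values lost and 42 gained one over 1863 values. The replicate block changed the members called in WT CS to SD and CS to RS from those named to Neurod6 (1 in each). Libraries share only a number (r of same-numbered deviations -0.329 to 0.554 for WT CS and SD, 0.068 to 0.666 for CS and RS, -0.726 to 0.333 for SD and RS), and not every library correlated best with its own number. In CS to RS the block raised calls over all genes from 2232 to 4279. In WT CS to SD it cut them from 5825 to 287, and in the f/f minus WT interaction from 1983 to 0. No paired analysis was possible between cKO and f/f because they share no replicate number. Over all genes, limma, edgeR and DESeq2 called 5825, 5701 and 6048 in WT CS to SD, 2232, 1623 and 3420 in CS to RS, 3, 3 and 54 in SD to RS, 5, 9 and 466 in f/f CS to SD, 3, 3 and 25 in cKO CS to SD, 973, 1067 and 2095 in cKO against f/f in CS, and 1927, 1944 and 2291 in SD.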

Other observations

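Eomes, a T-box relative of Tbr1 that marks intermediate progenitors in development, was near 0 in most libraries but not in cKO mice. It had 7.33, 2.47 and 2.02 rescaled CPM in cKO CS and 6.28, 2.02 and 6.32 in cKO SD. The 3 f/f SD libraries had 0.0, 0.0542 and 0.0736. In f/f CS 3 libraries had at most 0.0566 and the other had 5.6, and single WT libraries also reached 3.46 in CS, 7.5 in SD and 2.45 in RS. Its level therefore overlapped between cKO and the other genotypes.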
